A study of Rattus norvegicus with 9 samples.

Results

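Annexins are a family of proteins that bind membrane phospholipids in the presence of calcium. The 8 genes described here are Anxa1, Anxa2, Anxa3, Anxa4, Anxa5, Anxa6, Anxa7 and Anxa11. They were chosen by symbol among the 14506 genes with a probe set of exactly 1 symbol, and each had 1 such probe set. Probe sets with several symbols or none were not searched for them. The samples came from 3 untreated male Wistar rats, numbered 2, 5 and 7, each of which gave hippocampus (HC), prefrontal cortex (PFC) and blood, with 1 Rat Gene 1.0 ST array per tissue and rat and 9 arrays in total. According to the methods the rats were 6 weeks old on arrival and were housed for 1 week, blood was collected in PAXgene tubes and brain tissue was punched from frozen sections. The methods describe 4 rats and 1 omitted sample, the sample protocol 6 rats and the series design 3. The study compared blood with the 2 brain regions of the same animals at baseline.

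All annexins share a core of conserved repeats that docks on negatively charged lipids such as phosphatidylserine, and they differ in the N-terminal tail, which binds other proteins. They take part in exocytosis, endocytosis, membrane repair and the resolution of inflammation. In the blood they are known from neutrophils, monocytes and platelets, and in the brain from glia, vessels, meninges and some neurons. In such bulk samples, fewer cells of a type and less RNA per cell cannot be told apart.

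Values are RMA values on the log2 scale, and presence means an average over the 3 arrays of a tissue above 6.2, the intensity cut-off of the study. The study also required a detection p-value, which was not used here, so presence is a looser rule than that of the study. The array means lay between 6.154 and 6.202. The tissue labels were checked against cell type markers. Of 12 neuronal markers, 12 were present in HC, 12 in PFC and 4 in blood, and of 12 neutrophil markers 11 were present in blood and 0 in either brain region. Blood had all 10 erythroid markers and both brain regions had 3 of them, and Ttr, a marker of choroid plexus, had a mean of 10.42 in HC against 4.35 in PFC.

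Of the 8 annexins, 7 were present in blood, 7 in HC and 7 in PFC, and 6 in all 3 tissues, against 46.9%, 47.2%, 47.1% and 36.3% of all probe sets. The exceptions were Anxa1, which was present only in blood, and Anxa3, which was present only in HC and PFC. The shares of all probe sets include 13581 of 29214 without a symbol, and so are not shares of named genes. All 8 means lay above the background of their tissue, read from receptors of smell and taste, whose 95th percentile was 5.53 for blood, 4.88 for HC and 4.85 for PFC. The nearest to it were Anxa3 in blood, by 0.43, and Anxa1 in HC, by 0.62.

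The promoters of the 4 annexins that differed between HC and PFC are shown to set beside their tissue levels, from RefSeq on assembly GRCr8. Each window runs from 250 bases before to 50 bases after the start used in that table, 5′ to 3′ on the strand of the gene, with the motifs TATAAA and GGGCGG in capitals in either orientation. They are Anxa1 (chr1:227303683-227303982, minus strand), Anxa2 (chr8:78986002-78986301, plus strand), Anxa4 (chr4:120798464-120798763, minus strand) and Anxa5 (chr2:121272647-121272946, minus strand). The start used for Anxa1 lies 3007 bases inside the outer end of the gene, and that of Anxa5 239 bases.
Anxa1: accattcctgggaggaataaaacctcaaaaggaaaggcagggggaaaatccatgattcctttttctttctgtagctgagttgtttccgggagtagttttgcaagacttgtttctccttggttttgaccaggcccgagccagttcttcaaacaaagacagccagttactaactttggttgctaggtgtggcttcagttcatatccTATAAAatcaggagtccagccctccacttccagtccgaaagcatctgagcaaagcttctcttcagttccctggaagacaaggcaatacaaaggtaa
Anxa2: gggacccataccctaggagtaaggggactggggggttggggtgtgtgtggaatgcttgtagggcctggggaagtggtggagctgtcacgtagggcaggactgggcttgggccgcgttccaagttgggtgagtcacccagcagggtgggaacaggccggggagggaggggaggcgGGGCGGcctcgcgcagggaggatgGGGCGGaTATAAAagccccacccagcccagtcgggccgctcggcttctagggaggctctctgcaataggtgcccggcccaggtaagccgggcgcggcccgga
Anxa4: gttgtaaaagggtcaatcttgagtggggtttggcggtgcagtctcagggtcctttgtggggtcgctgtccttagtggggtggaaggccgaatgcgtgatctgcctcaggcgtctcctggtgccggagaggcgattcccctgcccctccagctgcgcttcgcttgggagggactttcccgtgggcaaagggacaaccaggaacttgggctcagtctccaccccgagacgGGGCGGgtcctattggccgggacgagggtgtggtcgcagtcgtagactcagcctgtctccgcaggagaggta
Anxa5: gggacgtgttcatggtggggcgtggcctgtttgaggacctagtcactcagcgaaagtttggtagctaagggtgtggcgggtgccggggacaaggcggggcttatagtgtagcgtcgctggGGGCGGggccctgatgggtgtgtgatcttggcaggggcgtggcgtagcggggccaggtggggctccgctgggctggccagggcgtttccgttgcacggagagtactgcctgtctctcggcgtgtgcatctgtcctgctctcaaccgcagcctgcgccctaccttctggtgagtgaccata

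Of the 8 genes, 7 had a window in the table. Positions count the first base of a match, with -1 just before the start. TATAAA was found in 2 of the 7, at -46 in Anxa1 and at -45 in Anxa2, and in 14.3% of 27457 promoters. GGGCGG was found in 6 of the 7 but not in Anxa1, and in 34.9% of promoters. The only match in Anxa7 was at 41, in a window whose start lies 1860 bases inside the outer end of the gene. The start used for Anxa11 lies 107 bases inside. CCAAT was found in 2 of the 7 (37.7% of promoters) and GAGGAA in 3 (27.5% of promoters), both searched on either strand as well. No TATAAA shared bases with a GGGCGG. Guanine and cytosine made up 45% of the Anxa1 window and 68%, 62.3% and 64.3% of those of Anxa2, Anxa4 and Anxa5. The matches are letters in a window and say nothing of binding.

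Anxa1 and Anxa2 were far higher in blood than in either brain region. Anxa1, which is induced by glucocorticoids and limits inflammation through formyl peptide receptors, had values of 9.84, 10.06 and 9.64 in the blood of rats 2, 5 and 7. In HC these were 5.13, 5.62 and 5.74, and in PFC 6.05, 6.19 and 6.15. The 3 tissues did not overlap, with blood highest and HC lowest in each rat, and none of the 6 brain arrays reached the cut-off. Anxa1 was lower in HC than in blood by a log2 difference of -4.35 ± 0.163 (standard error, n = 3 arrays per tissue), or 20.4-fold (adjusted p = 4.96e-09), and lower in PFC by -3.71 ± 0.163, or 13.1-fold (adjusted p = 1.38e-08).

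Anxa2, which pairs with S100a10 at the cell surface and there binds plasminogen and its activator, stood at 10.54, 10.65 and 10.71 in blood. Its values were 6.56, 6.74 and 6.49 in HC, and 7.37, 7.68 and 7.74 in PFC. The order was again blood, PFC, HC in each rat, without overlap, but Anxa2 was present in all 3 tissues. The difference to blood was -4.04 ± 0.119 in HC (16.4-fold lower, adjusted p = 1.01e-09) and -3.04 ± 0.119 in PFC (8.21-fold lower, adjusted p = 6.24e-09). RefSeq lists 8 pseudogenes of Anxa2 and 4 of Anxa7, and whether the probes of these sets also match them was not tested.

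Anxa7 was lower in brain by a smaller amount. Anxa7 promotes the fusion of secretory granules and binds sorcin. It had values of 8.14, 8.38 and 7.65 in blood, 6.78, 6.87 and 6.91 in HC, and 6.62, 6.93 and 6.91 in PFC. All blood arrays were above all brain arrays, and HC and PFC overlapped. HC differed from blood by -1.20 ± 0.17 (2.30-fold, adjusted p = 8.42e-05) and PFC by -1.23 ± 0.17 (2.35-fold, adjusted p = 7.00e-05).

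Anxa3 and Anxa5 were higher in both brain regions than in blood. Anxa3, known from the granules of neutrophils, had values of 6.08, 6.04 and 5.78 in blood, 7.40, 7.47 and 7.43 in HC, and 7.29, 7.44 and 7.32 in PFC. All 3 blood arrays were under the cut-off and all 6 brain arrays above it. The differences were 1.47 ± 0.099 in HC (adjusted p = 3.24e-07) and 1.38 ± 0.099 in PFC (adjusted p = 5.07e-07).

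Anxa5, which coats phosphatidylserine on activated and dying cells and is used to stain them, stood at 7.76, 8.44 and 8.37 in blood. It had values of 8.91, 8.91 and 8.87 in HC, and of 9.5, 9.65 and 9.55 in PFC. The order was PFC, HC, blood in each rat and no array overlapped with another tissue. Anxa5 was higher than in blood by 0.70 ± 0.159 in HC (1.63-fold, adjusted p = 0.00213) and by 1.38 ± 0.159 in PFC (2.60-fold, adjusted p = 1.92e-05). With a scaling on a panel of 21 housekeeping genes, the value for HC was 0.19 and did not pass (adjusted p = 0.336).

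Anxa4 lay on opposite sides of blood in the 2 brain regions. Anxa4 is an annexin of epithelial membranes. Its values were 7.08, 7.73 and 7.64 in blood, 6.84, 6.79 and 6.48 in HC, and 8.29, 8.41 and 8.16 in PFC. In each rat PFC was highest and HC lowest, without overlap. HC differed from blood by -0.78 ± 0.173 (adjusted p = 0.00196) and PFC by 0.80 ± 0.173 (adjusted p = 0.00157), so that the mean of both regions differed from blood by 0.01, with a 95% interval from -0.32 to 0.35. Under the housekeeping scaling the value for PFC was 0.25 and did not pass the test (adjusted p = 0.256).

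Anxa6 did not pass the test in either region, and Anxa11 was somewhat higher in HC than in blood. Anxa6, an annexin with a duplicated core that binds cholesterol-rich membranes, had values of 9.42, 9.13 and 9.66 in blood, 9.16, 9.18 and 9.19 in HC, and 9.45, 9.35 and 9.07 in PFC. The 3 tissues overlapped, and the 95% interval of the difference to blood ran from -0.55 to 0.09 in HC and from -0.43 to 0.20 in PFC. Anxa6 was called lower in HC, by -0.37 (adjusted p = 0.019), without the blood array of rat 5, and in both regions under the housekeeping scaling, by -0.74 in HC and -0.67 in PFC (adjusted p = 0.000287 and 0.000551).

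Anxa11, which tethers RNA granules to lysosomes and binds S100a6 and Pdcd6, stood at 8.31, 8.62 and 8.42 in blood, 8.86, 8.84 and 9.0 in HC, and 8.69, 8.65 and 8.68 in PFC. All brain arrays were above all blood arrays. The difference to blood was 0.45 ± 0.098 in HC (adjusted p = 0.0016), and 0.22 ± 0.098 in PFC, which did not pass (adjusted p = 0.056). Anxa11 in PFC was called without the blood array of rat 5 (0.31, adjusted p = 0.00444) or without rat 5 (0.32, adjusted p = 0.0232), with centring on the array median (0.29, adjusted p = 0.018), and at an unmoved 0.22 with the cut-off of 7.2, the variance trend or low values raised (adjusted p = 0.048, 0.0457 and 0.0469). The mean of both regions was higher by 0.34 ± 0.0849 (adjusted p = 0.00378) as deposited, but differed by -0.19 (adjusted p = 0.129) when scaled on the housekeeping panel, which shifts every gene alike by -0.53 and so turns any value between 0 and that size.

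**Figure D1:**
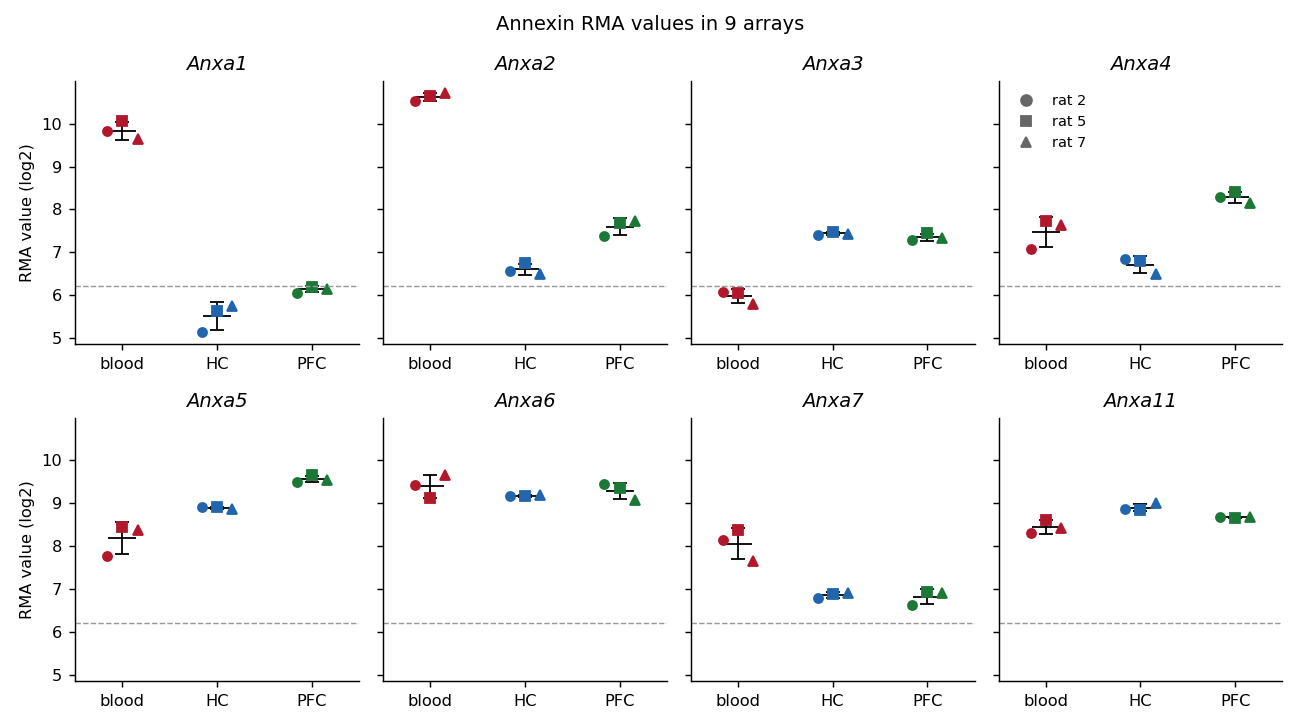
RMA values (log2, vertical axis) of the 8 annexins in blood, HC and PFC. Points are single arrays, shaped by rat, bars are the mean ± SD of 3 arrays and the dashed line is the cut-off of 6.2. Anxa1 and Anxa2 are highest in blood, Anxa3 is under the cut-off only in blood, and Anxa4 in blood lies between HC and PFC.

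Counted over the family, 3 of 8 annexins were higher and 4 lower in HC than in blood, where 47.6% and 36.3% of all 16884 tested probe sets were called, or 83.9% in either direction. In PFC 3 were higher and 3 lower, against 47.3% and 36.7%, or 84% in either direction. For the mean of both regions 3 were higher (Anxa3, Anxa5 and Anxa11) and 3 lower (Anxa1, Anxa2 and Anxa7), against 48.8% and 37.4%, or 86.2% in either direction. These shares are close to the background, since most probe sets differed between blood and brain. The median difference of the 8 genes was -0.08, against 0.22 over all tested probe sets, and the arrays of blood did not overlap with those of HC for 7 of 8 genes (84.4% of tested probe sets) and with those of PFC for 7 of 8 (83.8%). Both comparisons share the blood arrays.

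**Figure D2:**
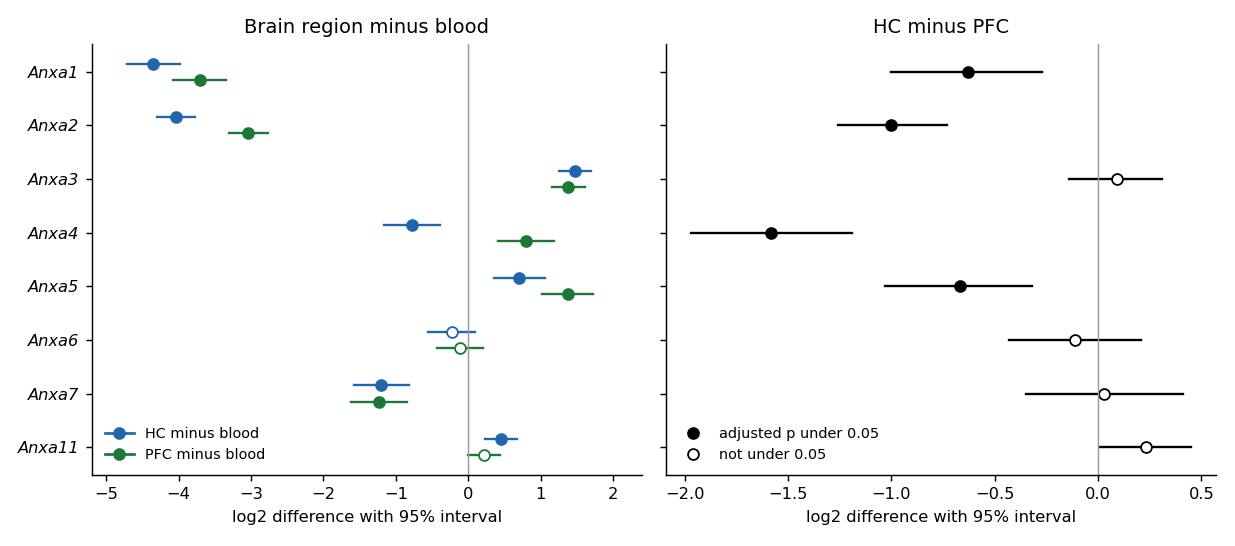
Log2 differences (horizontal axis) of the 8 annexins from limma with 95% intervals, for HC and PFC minus blood on the left and HC minus PFC on the right, filled where the adjusted p was under 0.05. Anxa4 lies at -0.78 for HC and 0.80 for PFC, and every filled point on the right is below 0.

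The housekeeping scaling lowered every brain minus blood difference by 0.53. The panel was itself not constant, with 14 of its 21 genes higher and 4 lower in brain and a range from -2.15 for B2m to 2.26 for Sdha, so its values for the annexins are read as the effect of such a shift. Over all tested probe sets it turned the split from 8232 higher and 6319 lower in brain to 5711 higher and 8752 lower. Anxa1 and Anxa2 stood at -4.56 and -4.07 under it, and Anxa3 and Anxa5 remained higher at 0.89 and 0.51. Anxa4 and Anxa6 were called lower, at -0.52 and -0.70. Centring on the array median moved the values by 0.07 and changed no call of the 8 genes for the mean of both regions, and only that of Anxa11 for PFC.

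**Figure D3:**
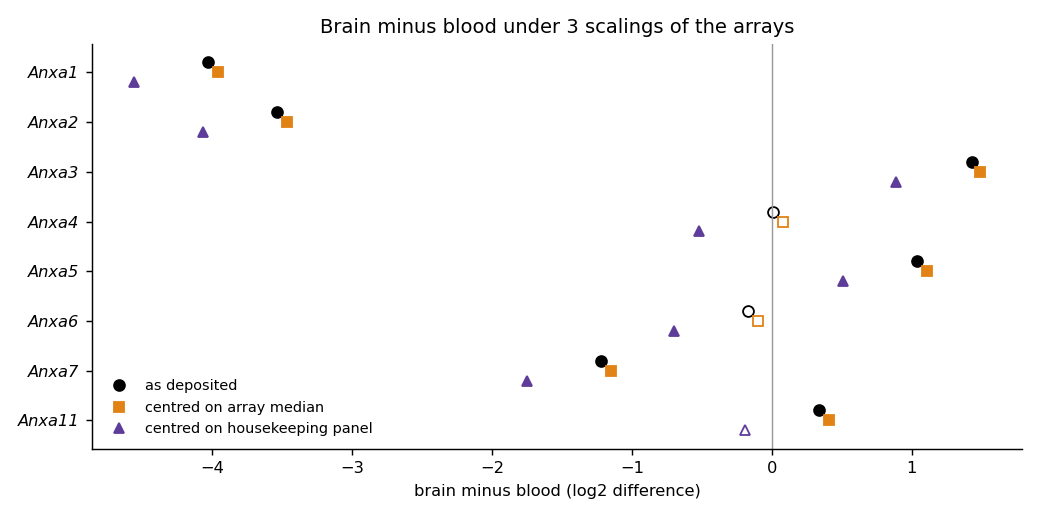
Brain minus blood (log2 difference, horizontal axis) for the 8 annexins with the arrays as deposited, centred on the array median, or centred on the housekeeping panel, filled where the adjusted p was under 0.05. Anxa11 moves from 0.34 to -0.19 and Anxa4 from 0.01 to -0.52 with the housekeeping panel, whereas Anxa1, Anxa2 and Anxa7 lie below 0 and Anxa3 and Anxa5 above 0 in all 3.

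Between the 2 brain regions, 4 annexins were lower in HC than in PFC and 0 were higher by limma. Of all tested probe sets 4.66% were lower and 4.51% higher, or 9.16% in either direction. The widest difference was that of Anxa4, at -1.58 ± 0.173 (2.99-fold lower in HC, adjusted p = 0.000344), with differences of -1.44, -1.61 and -1.68 in rats 2, 5 and 7. Anxa2 differed by -1.0 ± 0.119 (2.00-fold, adjusted p = 0.000545), and by -0.81, -0.93 and -1.25 within the rats.

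Anxa5 differed by -0.67 ± 0.159 (1.59-fold, adjusted p = 0.0272), with -0.59, -0.75 and -0.68 in the 3 rats. Anxa1 differed by -0.63 ± 0.163 (1.55-fold, adjusted p = 0.0394), with -0.93, -0.57 and -0.41, and both of its brain means were under the cut-off. Thus all 4 genes were lower in HC in 3 of 3 rats. The fit takes 1 spread per probe set over all 3 tissues, so these standard errors include the spread of the blood arrays. The SD in blood, HC and PFC was 0.372, 0.024 and 0.078 for Anxa5, and 0.208, 0.326 and 0.069 for Anxa1. The calls of Anxa1 and Anxa5 were close to the threshold. Without the filter on dim probe sets their adjusted p was 0.0744 and 0.0523, and under the housekeeping scaling 0.0965 and 0.0679. The call of Anxa5 was lost without any 1 of the 6 brain arrays (adjusted p = 0.0731 to 0.114), and that of Anxa1 without any but the HC array of rat 7 (adjusted p = 0.0808 to 0.144). Anxa4 and Anxa2 passed under every alternative tried, except that Anxa2 did not exceed an absolute log2 difference of 1.

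The other 4 annexins did not pass between the regions. The 95% interval of HC minus PFC ran from -0.14 to 0.31 for Anxa3, from -0.43 to 0.21 for Anxa6 and from -0.35 to 0.41 for Anxa7. Anxa11 had a difference of 0.23 ± 0.098 (adjusted p = 0.238, unadjusted p = 0.0425) and was the 1 gene above 0 at an unadjusted p under 0.05. It was higher in HC in 3 of 3 rats and was called (adjusted p = 0.0247) when only the brain arrays were fitted. HC and PFC arrays did not overlap for 5 of 8 annexins, against 42% of tested probe sets. The median absolute difference was 0.43 for the annexins and 0.12 over all tested probe sets.

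Some markers of other cell types moved in the same direction between the regions. Of all tested probe sets 4.66% were lower in HC and 4.51% higher. Of 9 tested markers of meningeal fibroblasts 3 were lower in HC, namely Igfbp2 by -0.86, the collagen gene Col3a1 by -0.77 and Slc22a6 by -0.48. The mean over the 12 genes of that list was 6.09 to 6.14 in the HC arrays and 6.55 to 6.61 in the PFC arrays, and 2 and 1 of the 12 were at or below background. Of 10 erythroid markers 3 were lower in HC, with the globin gene Hbb at -0.97, and the list mean was 5.61 to 5.79 in HC and 5.93 to 6.22 in PFC, with 3 of 10 at or below background in each. The monocyte list held 1 lower gene, Lyz2 at -1.01, and 1 higher gene of 8. The mean of the neuronal list differed by -0.28, -0.27 and -0.20 in the 3 rats, with 1 of 12 genes lower, Tubb3 at -0.46. That of the endothelial and mural list differed by -0.14, -0.11 and -0.05, with 1 of 11 tested genes lower, Esam at -0.32. Neither of these 2 lists held a higher gene. The mean of the T cell list went the other way, by 0.07, 0.17 and 0.09 in rats 2, 5 and 7. In it 1 of 11 genes was higher in HC, Cd3e by 2.10 (adjusted p = 0.000158), and 0 were lower. At or below background were 4 of the 11 in each region. The B cell list and the natural killer and cytotoxic list held 0 called genes, with 4 of 6 and 8 of 9 at or below background in each region. Neutrophil and platelet markers were not present in either region, with 7 and 6 of 12 neutrophil genes and 2 and 2 of 6 platelet genes at or below background in HC and PFC, so that a comparison of the regions says little for these lists.

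For Anxa4 every PFC array as deposited was above every blood array, at 8.16 to 8.41 against 7.08 to 7.73. The same held for Anxa5, at 9.5 to 9.65 against 7.76 to 8.44. Under the housekeeping scaling PFC minus blood of Anxa4 did not pass. The part of the cell types above in the lower annexin values of HC was not tested. In the opposite direction, 6 of 8 oligodendrocyte markers were higher in HC, and so was 1 of 9 astrocyte markers, Gfap by 1.55, with the mean of that list higher in HC by 0.35, 0.32 and 0.38 in the 3 rats. Of 4 tested choroid plexus and ependymal markers 1 was higher in HC, Ttr by 6.07, with a median of 0.13 over the 4. The mean over the 10 genes of that list, Ttr among them, was higher in HC by 1.26, 0.79 and 0.81 in the 3 rats. In PFC 4 of the 10 were at or below background. Microglial markers had 0 of 8 called in either direction, with list means of 7.07 to 7.13 in HC and 7.00 to 7.13 in PFC.

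**Figure D4:**
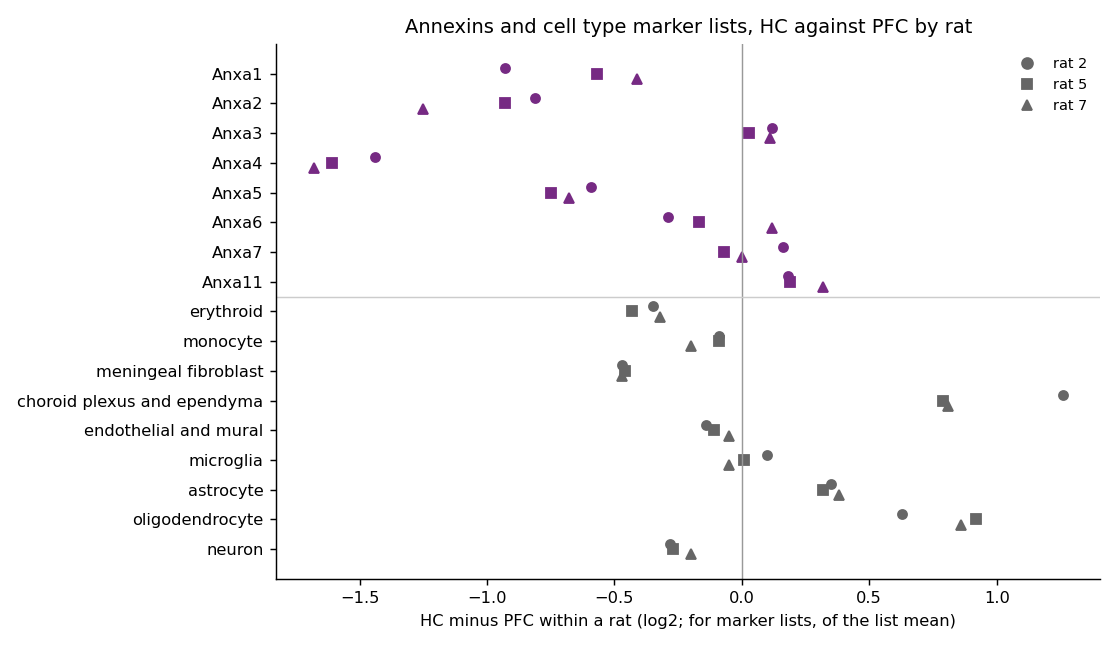
HC minus PFC within each rat (log2 difference, horizontal axis) for the 8 annexins, above the line, and for the mean of 9 cell type marker lists, below it. Points are single rats. The neutrophil, platelet, B cell and cytotoxic lists are not plotted, nor is the T cell list, whose mean was higher in HC in each rat. Anxa1, Anxa2, Anxa4 and Anxa5 lie below 0 in all 3 rats, as do the erythroid, monocyte, meningeal, endothelial and neuronal lists, and the oligodendrocyte list lies between 0.63 and 0.92.

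The SD over 3 rats was highest in blood for 6 of the 8 members. The exceptions were Anxa1, with 0.208 in blood and 0.326 in HC, and Anxa2, with 0.089 in blood against 0.133 for HC and 0.197 for PFC. It was 0.352 in blood against 0.197 in HC and 0.123 in PFC for Anxa4, and 0.372 against 0.024 and 0.078 for Anxa5, both lowest in the blood of rat 2. Anxa7 had an SD of 0.368 in blood, 0.066 in HC and 0.173 in PFC, and was lowest in the blood of rat 7. In blood Anxa1 and Anxa7 were both highest in rat 5 and lowest in rat 7, as was the mean of the neutrophil list, at 8.06, 8.47 and 7.75 in rats 2, 5 and 7. The blood means of the oligodendrocyte list (6.24, 6.47 and 6.11) and the membrane repair list (7.37, 7.50 and 7.25) had the same order. Those of the monocyte list (8.61, 8.51 and 8.78) did not, and Anxa3 was highest in the blood of rat 2. With 3 rats no relation was tested.

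Among the proteins that bind annexins, S100a10 and S100a11 were lower in brain than in blood and S100b was higher. Of 10 listed partners 8 were on the array with a symbol of their own and 7 were tested, of which 3 were higher and 4 lower in brain, against 48.8% and 37.4% of all tested probe sets. Their median was -0.57, against 0.22 over all tested probe sets, and calls in nearly every gene are the background of this comparison. S100a10, the partner of Anxa2, had values of 10.68, 10.60 and 10.70 in blood, 8.48, 8.39 and 8.45 in HC, and 9.16, 9.12 and 9.34 in PFC. Its order was blood, PFC, HC in each rat, as for Anxa2, and it was lower in brain by -1.83 ± 0.0751 (adjusted p = 6.28e-09). It was the 1 partner called between the regions, at -0.77 ± 0.0867 for HC minus PFC (adjusted p = 0.000398).

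S100a11, the partner of Anxa1, was lower in brain by -4.27 ± 0.0984 (adjusted p = 1.41e-10), with 9.84, 9.74 and 9.64 in blood and 5.15 to 5.70 over the 6 brain arrays. HC minus PFC was -0.22 for S100a11 (adjusted p = 0.367). S100a4, a calcium sensor of motile cells, was lower in brain by -2.91 ± 0.123 (adjusted p = 8.11e-09). S100b, which astrocytes make in abundance, was higher by 4.68 ± 0.134 (adjusted p = 5.46e-10). S100a6 had means of 6.19 in blood, 4.80 in HC and 5.11 in PFC and was not tested, as no mean exceeded 6.2.

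Among the other genes listed as partners, the calcium sensor Pdcd6 was higher in brain by 0.81 ± 0.097 (adjusted p = 2.25e-05). Its relative Pef1 was higher by 0.75 ± 0.102 (adjusted p = 5.96e-05). Tsg101, a subunit of the sorting machinery of endosomes, was lower by -0.57 ± 0.0932 (adjusted p = 0.000227). Of 5 listed formyl peptide receptors only 1, Fpr1, was on the array with a symbol of its own. Fpr2, Fpr3, Fpr2l and Fpr-rs6 were not, so nothing is said of them. Fpr1 stood at 8.05, 8.22 and 7.81 in blood and at 4.15 to 4.79 over the brain arrays. There it is not above background, so that its fitted difference of -3.55 has a bound of -3.16 with the brain values raised to background.

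**Figure D5:**
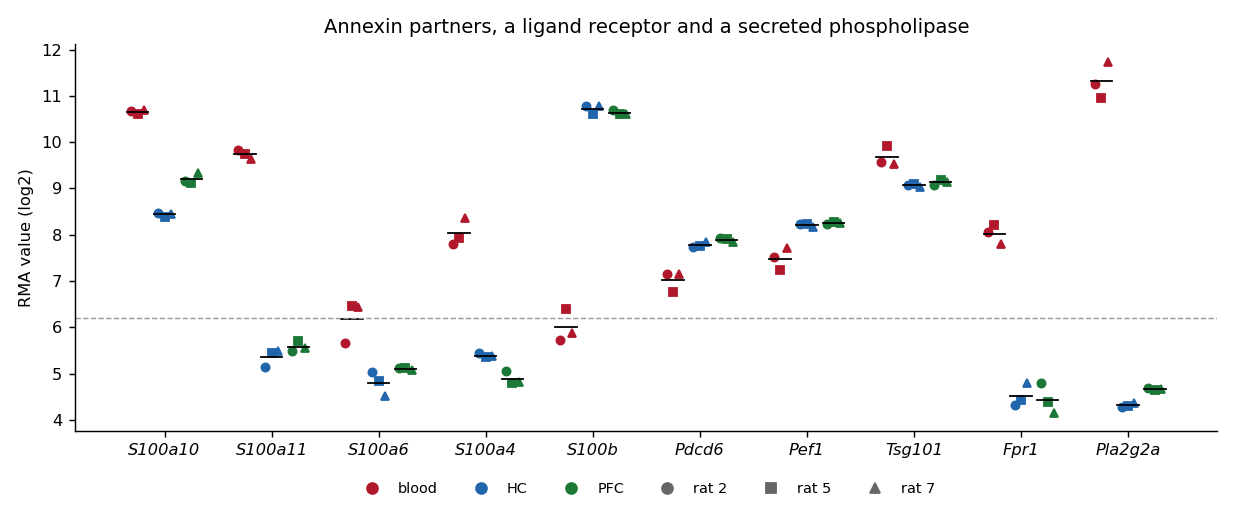
RMA values (log2, vertical axis) of 8 genes listed as annexin partners, the formyl peptide receptor Fpr1 and the secreted phospholipase Pla2g2a in single arrays. Points are coloured by tissue and shaped by rat, with a bar at the mean of 3 arrays and the cut-off of 6.2 dashed. S100a10 and S100a11 are highest in blood and S100b is highest in HC and PFC, at 10.72 and 10.64.

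The next list held genes that expose or recognize phosphatidylserine, the lipid bound by Anxa5. Of 14 such genes on the array 12 were tested, 9 higher and 3 lower in brain, against 48.8% and 37.4% of all tested probe sets, with a median of 1.60 against 0.22 over all tested probe sets. The receptor Adgrb1 was higher by 3.06, the receptor kinase Tyro3 by 2.89 ± 0.081 and its relative Mertk by 2.64, or 2.30 with its blood value raised to background. Tyro3 was also lower in HC than in PFC, by -1.11 ± 0.0935 (adjusted p = 6.67e-05), whereas the flippase Atp11a and the scramblase Ano6 were higher in HC, by 0.63 (adjusted p = 0.0448) and 0.49 (adjusted p = 0.0229).

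Of 7 tested genes of membrane repair 5 were higher and 2 lower in brain (median 0.53), and of 5 tested phospholipases A2 2 were higher and 3 lower (median -0.85). These counts stand beside 48.8% higher and 37.4% lower, and a median of 0.22, over all tested probe sets. Cav1, which builds caveolae, was higher by 3.14, or 2.37 with its blood value raised to background, the calpain Capn1 was lower by -2.80, and Vps4a, which recycles the sorting machinery of endosomes, was higher by 1.26. Of 3 tested genes of the plasminogen system, the protease inhibitor Serpine2 was higher in brain by 3.66 and the plasminogen activator Plat by 2.73, whereas the urokinase receptor Plaur was lower by -1.16. Among the phospholipases the secreted enzyme Pla2g2a had the widest difference, at -6.82, or -6.45 with its brain values raised to background, and Pla2g7, which degrades platelet-activating factor, stood at -1.18.

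The other annexins on the array, Anxa8, Anxa10 and Anxa13, were not present in any tissue. Their means were 5.05, 4.01 and 3.88 in blood, 4.44, 3.22 and 3.08 in HC and 4.71, 3.41 and 3.12 in PFC. All 9 means were below the background of their tissue, so no difference is given.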

How the data were processed

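RNA from 3 tissues of 3 rats was hybridized to 9 Rat Gene 1.0 ST arrays. The authors quantile normalized the intensities, summarized them per probe set with RMA in Affymetrix Power Tools and deposited the values, read here as log2. Probe sets were named through the annotation of the array. Of 29214 probe sets with values, 15310 had exactly 1 symbol, and 1 of 29215 had no value. The members, lists and tests were chosen with earlier results of these data known. All 8 members, the other annexins on the array, fixed partner genes and up to 3 widest differences per further list were named, with 2 genes of like pattern per member.

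The 16884 probe sets with a mean above 6.2 in at least 1 tissue entered a limma 3.58.1 fit (R 4.3.3) with a term for tissue and none for rat, and Benjamini-Hochberg adjustment ran over all of them. The fit has 1 spread per probe set over all 3 tissues, also for HC minus PFC. Calls needed an adjusted p below 0.05. Every adjusted p printed is from this fit unless a setting is named. With 3 arrays against 3, an exact permutation test cannot go below 0.1, so none is given. The fit was first tested on simulated data with planted HC minus PFC differences, the same spread in every tissue and no effect of rat. That simulation does not cover a spread that differs between tissues, as it does for most of the annexins. The 3 tissues of a number come from 1 animal. Deviations from the tissue mean correlated between HC and PFC of the same rat at 0.254, 0.137 and 0.287 across probe sets, and of different rats at -0.261 to 0.028. Between blood and brain the values were -0.079 to 0.052 within a rat and -0.106 to 0.118 between different rats. Deviations from a mean of 3 arrays are tied to each other, so these values are not independent. The detection p-values of the study were not used here. Background was taken as the 95th percentile of 1298 olfactory, vomeronasal and taste receptor probe sets (5.53 in blood, 4.88 in HC, 4.85 in PFC). Alternatives covered the filter, the rat block, 2 scalings, the variance model, 1 row per gene, the arrays fitted, low values, thresholds, and leaving out each array and rat.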

Additional observations from a re-analysis of the deposited data

Results flagged for a closer look

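For 4 annexins the difference to blood was not the same in HC and in PFC by the test of HC minus PFC, and both differences share the blood arrays. The gap was -1.58 for Anxa4 (-0.78 in HC and 0.80 in PFC), and -1.0 for Anxa2 (-4.04 and -3.04). It was -0.67 for Anxa5 (0.70 and 1.38), and -0.63 for Anxa1 (-4.35 and -3.71).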

How the results depend on the processing

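Precision was limited by 3 arrays per tissue, and signal over background was lowest for Anxa3 in blood and Anxa1 in HC. With the rat as a replicate block, fixed or random, no call of the 8 annexins changed. With the fixed block, HC minus PFC of Anxa1 had an adjusted p of 0.0416 and that of Anxa5 of 0.028, and the 4 annexins lower in HC than PFC stayed 4. Annexins called lower in HC than PFC numbered 2 without the filter on dim probe sets, 2 with housekeeping scaling, 2 at an adjusted p under 0.01 and 1 at an absolute log2 difference above 1. With arrays or rats left out they ranged from 2 to 4. With only the brain arrays fitted, 1 was higher in HC than PFC, Anxa11. Over all tested probe sets that fit called 2136 higher and 2210 lower in HC, against 761 and 786, and without the filter 14500 were lower in brain than blood, against 6319. With arrays or rats left out, 318 to 1303 were higher and 338 to 1329 lower in HC. Housekeeping scaling gave 5 annexins lower in brain than blood, 5 lower in PFC than blood and 1 higher in HC than blood, and the threshold on the size of the difference also gave 1 higher in HC. At a cut-off of 7.2, 4 annexins were present in HC.

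Directions turned as follows. Under housekeeping scaling Anxa4 stood at -0.52 and Anxa11 at -0.19 for brain minus blood, and Anxa11 at -0.06 for HC minus blood and at -0.33 for PFC minus blood (adjusted p = 0.0359). With arrays or rats left out, Anxa4 ranged from -0.22 to 0.18 and Anxa6 from -0.32 to 0.01 for brain minus blood, Anxa6 from -0.28 to 0.12 for PFC minus blood, and Anxa7 from -0.07 to 0.09 for HC minus PFC. The call of Anxa11 in brain was lost without rat 2 (adjusted p = 0.0512) or rat 7 (adjusted p = 0.0518). The call of Anxa1 between HC and PFC was lost without any 1 rat, and that of Anxa5 without rat 5 or rat 7. The causes were not tested. Leaving out arrays changes both their number and the values that remain, and these cannot be told apart here.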

Other observations

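The 2 genes nearest to each annexin in pattern, by the root mean square difference over 9 arrays after centring each gene on its own mean, were taken from 9918 other genes present in at least 1 tissue. They are a description, dominated by the difference between tissues. Qrfpr was below background in blood and HC (5.43 and 4.68) and Lgals3 in HC (4.70), so their places have no firm order. For Anxa1 they were Phospho1 (0.122) and Tspan8 (0.166), and for Anxa2 Lgals3, which encodes galectin-3 (0.245), and Emp3 (0.285). For Anxa4 they were Qrfpr (0.132) and Adprhl1 (0.219), for Anxa5 Tspan5 (0.130) and Rps6kc1 (0.132), and for Anxa3 Cwf19l2 (0.064) and Neurl4 (0.070). For Anxa6 they were Tor2a (0.098) and Zfp777 (0.1), for Anxa7 Inhbb (0.087) and Blvra (0.099), and for Anxa11 Gmppa (0.048) and L3hypdh (0.065).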
